A study of Mus musculus with 12 samples.

Results

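Expression of 33 genes of lysosomal enzymes, lysosomal membrane proteins and their transcriptional regulator Tfeb was described in the cortex of TAU58/2 mice and non-transgenic controls. The genes were taken by name as a list of lysosomal genes, and all 33 were found once in each of the 2 deposited tables, which hold 48526 genes. The series measured RNA of cortex from 12 mice on a C57Bl/6 background that had received no treatment, with 3 mice in each of 4 groups, transgenic (TAU58/2) or non-transgenic at 3 or at 10 months of age. TAU58/2 mice carry human tau with the P301S mutation under the neuronal Thy1 promoter, so any response in glia or vessels would be secondary to a transgene that is made in neurons. Whether a level falls because fewer cells of a type are present or because each cell holds less of the RNA cannot be told apart in such bulk tissue.

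Lysosomes are acidic organelles in which proteins, glycans and lipids delivered by endocytosis and autophagy are broken down. Their soluble hydrolases are made in the endoplasmic reticulum, most are carried from the Golgi on mannose 6-phosphate receptors, and heavily glycosylated membrane proteins shield the limiting membrane. In brain, loss of single lysosomal enzymes or transporters causes storage diseases with neurodegeneration, and lysosomes are one route by which tau is degraded. Many of the genes are targets of TFEB, a transcription factor held in the cytosol by phosphorylation when nutrients are plentiful, which binds an E-box called the CLEAR element.

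The tables give FPKM, fragments scaled by transcript length and library size, so levels can be set beside each other between genes. The FPKM of a library added up to 125933 to 158077, with 12828 to 13914 genes above 0. The depth of the libraries is unknown. Neurons and cortex were present by their markers, Slc17a7 between 98.2 and 233 FPKM in the 12 libraries and Snap25 between 131 and 344 FPKM, while Rorb, a layer marker, was at 0 in 7 libraries. The 10-month transgenic 1 library held 11228 FPKM of the pituitary hormone Gh against at most 37.4 FPKM elsewhere, and its part in the values of the lysosomal genes was not tested. Summed choroid plexus markers were at 731 FPKM in 3-month control 1, 304 in 3-month transgenic 3 and 440 in 10-month transgenic 1. They lay between 5.24 and 63.5 FPKM elsewhere. Summed blood markers were at 35.4, 142 and 83.3 FPKM in 3-month transgenic and 25.1, 14.9 and 22.4 FPKM in 3-month control libraries. None was called there (smallest limma adjusted p = 0.914), and the 10-month sums overlapped. The part of either list in the lysosomal values was not tested. Mapt, whose reads can include the transgene, was at 47.6, 47.5 and 43.3 FPKM in the 3-month transgenic and 6.64, 12.0 and 7.47 FPKM in the 3-month control libraries (two-sided exact permutation p = 0.1, the smallest that 3 against 3 allow). At 10 months it did not follow the labels, with 42.7, 8.13 and 9.08 FPKM under the control label and 42.6, 12.4 and 3.31 FPKM under the transgenic label (two-sided exact permutation p = 0.9). At 3 months Thy1 was at 441, 417 and 410 FPKM in transgenic and 114, 105 and 140 FPKM in control libraries. At 10 months it was at 172, 114 and 159 FPKM in transgenic and 115, 314 and 176 FPKM in control libraries. The two-sided exact permutation p of Thy1 was 0.1 at 3 months and 0.4 at 10 months. Each 10-month direction below therefore rests on the labels, as do the averages over ages, the interactions and the age comparisons. Values in 3 libraries are given in the order of replicates 1 to 3, and because each age has its own deposited table, age and table cannot be told apart.

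No lysosomal gene passed the threshold in any comparison. The test covered the 9846 genes whose mean reached 1 FPKM in any group, with limma on log2(FPKM + 0.1) and Benjamini-Hochberg adjustment over all of them at 0.05. Of the 33, 30 entered the test, and Tfeb, Cln3 and Ctsc lay below the filter. Between genotypes at 10 months 0 of 30 were called, where 0.0102% of all genes tested were called. At 3 months the count was 0 of 30, with 0.0406% of all genes called. It was also 0 of 30 for the genotype difference averaged over both ages and for the age by genotype interaction (0.0508% of all genes in each), for age in controls (0.0305%) and for age in transgenic mice (0.0203%). The smallest adjusted p of any of the 30 in the 6 comparisons was 0.969.

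**Figure D1:**
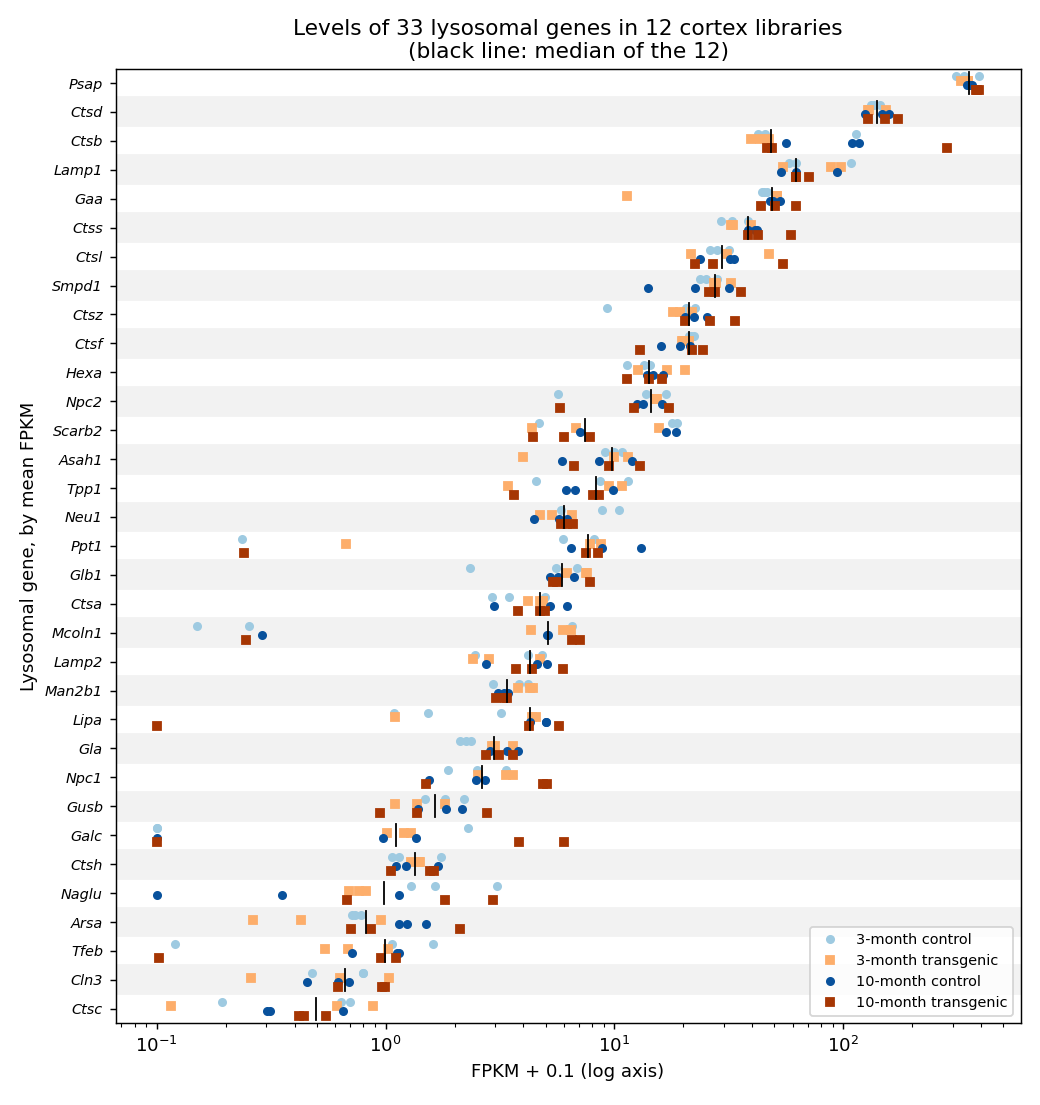
Levels of the 33 lysosomal genes in the 12 cortex libraries, as FPKM + 0.1 on a log axis, with genes ordered by mean FPKM, 1 point per library coloured by group, and a black line at the median of the 12. Psap lies at the top with its 12 points between 310 and 393 FPKM, while Mcoln1, Ppt1, Lipa and Galc each have points far below their own median.

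Levels spanned about 3 orders of magnitude. Psap, which encodes the precursor of the saposins that help hydrolases act on sphingolipids, had a mean of 357 FPKM over the 12 libraries and ranked 29 among the 48526 genes. Ctsd, the aspartic protease cathepsin D, followed with a mean of 142 FPKM, then Ctsb, the cysteine protease cathepsin B, with 82.5 FPKM, Lamp1, an abundant glycoprotein of the lysosomal membrane, with 72.6 FPKM, and Gaa, the acid glucosidase that breaks down lysosomal glycogen, with 46.2 FPKM. At the other end, Ctsc, Cln3, Tfeb and Arsa had means of 0.384, 0.596, 0.750 and 0.853 FPKM. The 33 genes together made up 0.654 ± 0.0210% of the summed FPKM in 3-month control, 0.649 ± 0.0362% in 3-month transgenic, 0.696 ± 0.0553% in 10-month control and 0.714 ± 0.0792% in 10-month transgenic libraries (SD, n = 3). These shares differed between groups by less than their range within the 10-month transgenic group, 0.637% to 0.795%.

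Tfeb, the regulator, was near the low end of the list in every group. It was at 1.51, 0.964 and 0.0199 FPKM in 3-month control and 0.926, 0.445 and 0.588 FPKM in 3-month transgenic libraries. At 10 months it was at 1.02, 1.05 and 0.612 FPKM in control and 0.00259, 1.01 and 0.858 FPKM in transgenic libraries. The 3-month control 3 and 10-month transgenic 1 libraries were more than 8-fold under its median of 0.892 FPKM, and the groups overlapped at both ages. Its activity is set largely after translation, so its RNA level is no measure of that activity. With no filter on low values the genotype log2 fold change of Tfeb was 0.30 (SE 1.12) at 3 months and -1.02 (SE 1.12) at 10 months, both past no threshold (limma adjusted p = 1 and 0.978).

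Promoter stretches of members with the E-box are shown because they are the sequence through which TFEB would act on this list. RefSeq promoters of 300 bases, 250 before to 50 after the annotated start (GRCm38.p6), were matched for 29 of the 33 genes. The core motif CACGTG, a palindrome and so the same on both strands, was in 12 of the 29 (41.4%), among them Arsa, Ctsf, Ctsl, Gaa, Glb1 and Naglu, against 8.09% of 27025 genes with such a promoter and 12.3% of the 7184 of them that were tested here. Of 83 other lysosomal genes with a promoter, 21 held it (25.3%). The longer form TCACGTGA, which contains the core, was in 5 of 29 (17.2%) and 11 of the 83 other lysosomal genes (13.3%), against 1.12% of all genes and 2.37% of tested genes. A 10-base form, which extends this by G on the left and C on the right, was in the Cln3 promoter alone among the 29, and in 0.370% of all genes. Below are the 5 stretches that hold TCACGTGA and that of Lamp1, which has 4 cores, with each motif in capitals and all written 5′ to 3′ on the strand of the gene. Cln3 lies on chr7:126583330-126583405 (minus strand), Ctsa on chr2:164833740-164833794 (plus), Ctsd on chr7:142387899-142387946 (minus), Gla on chrX:134601172-134601253 (minus), Mcoln1 on chr8:3500428-3500501 (plus) and Lamp1 on chr8:13159080-13159171 (plus).
Cln3: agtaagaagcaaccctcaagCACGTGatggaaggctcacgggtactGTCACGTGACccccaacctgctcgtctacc
Ctsa: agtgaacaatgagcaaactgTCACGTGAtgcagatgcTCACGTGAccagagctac
Ctsd: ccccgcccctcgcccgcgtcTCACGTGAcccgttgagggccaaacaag
Gla: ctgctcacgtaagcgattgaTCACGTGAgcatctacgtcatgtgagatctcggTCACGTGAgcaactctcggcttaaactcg
Mcoln1: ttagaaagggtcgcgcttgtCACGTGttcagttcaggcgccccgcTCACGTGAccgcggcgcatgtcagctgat
Lamp1: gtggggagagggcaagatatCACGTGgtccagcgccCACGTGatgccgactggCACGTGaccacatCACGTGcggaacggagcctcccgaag
A match describes letters in this window only. The 12 genes with a core had a median level of 5.12 FPKM (0.596 to 142) and the 17 without one of 6.30 FPKM (0.384 to 357), and neither set held a gene that passed the threshold.

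Of the proteases, Ctsd was among the steadiest genes of the list. Ctsd (ENSMUSG00000007891, GRCm38 chromosome 7, 142375911 to 142388038, minus strand) was at 144, 136 and 132 FPKM in 3-month control and 153, 128 and 130 FPKM in 3-month transgenic libraries. At 10 months its values were 157, 147 and 124 FPKM in control and 152, 128 and 172 FPKM in transgenic libraries. The groups overlapped at both ages, with genotype log2 fold changes of -0.01 (95% confidence interval -0.36 to 0.35) at 3 months and 0.07 (-0.28 to 0.43) at 10 months. In the GENCODE annotation 34.4% of its exonic bases are shared with the protein-coding gene Gm49369 on the same strand, which the deposited tables do not list. The part of this overlap in the Ctsd values was not tested.

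Ctsb (ENSMUSG00000021939, chromosome 14, 63122462 to 63145923, plus strand), by contrast, varied 7.18-fold between libraries. It was at 45.3, 42.2 and 114 FPKM in 3-month control, 42.9, 47.4 and 39.4 FPKM in 3-month transgenic, and 56.0, 117 and 108 FPKM in 10-month control libraries. In 10-month transgenic libraries it was at 48.8, 46.5 and 283 FPKM. Thus 4 libraries from 3 groups lay above 100 FPKM and the other 8 between 39.4 and 56.0 FPKM, and the largest step between neighbouring values, 1.28 on the log2 scale, set the 10-month transgenic 3 library above all others. The age difference in transgenic mice was 1.00 on the log2 scale (SE 0.66) without a call (limma adjusted p = 0.974), and was 0.14 without the 10-month transgenic 3 library. Exons of Fdft1 on the opposite strand cover 12.8% of its exonic bases.

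Ctss, cathepsin S, which is made mainly by microglia in brain, had its lowest values at 3 months. It was at 38.3, 29.0 and 32.6 FPKM in 3-month control, 39.5, 32.3 and 32.8 FPKM in 3-month transgenic, 41.7, 41.0 and 38.1 FPKM in 10-month control and 42.2, 38.2 and 59.1 FPKM in 10-month transgenic libraries. The age groups overlapped in each genotype, by the 3-month control 1 and the 3-month transgenic 1 library. Log2 fold changes with age were 0.28 (SE 0.19, limma adjusted p = 0.994) in controls and 0.40 (SE 0.19, limma adjusted p = 0.974) in transgenic mice. They were 0.19 with 3-month control 2 left out and 0.21 with 10-month transgenic 3 left out. The summed level of 14 microglial markers, among them Csf1r and the C1q genes, ran between 157 and 180 FPKM in 3-month control, 133 and 190 in 3-month transgenic, 126 and 174 in 10-month control and 113 and 176 FPKM in 10-month transgenic libraries. Of these markers P2ry12 was at 0 in 2 libraries and Itgam in 7. Of 10 markers of activated microglia, Cst7, Itgax and Clec7a were at or near 0 (at most 0.0257 FPKM in any library). Gpnmb and Ccl6 were also low, at most 0.309 and 0.789 FPKM in any library, and Lpl ran between 0 and 2.60 FPKM. Others were present, Apoe, which astrocytes also make, at 278 to 793 FPKM, Cd9 at 10.5 to 19.3 FPKM, Axl at 2.54 to 8.20 FPKM and Spp1 at 0.613 to 11.5 FPKM. Of the 5 tested none was called with age in transgenic mice, where log2 fold changes were positive for 2 and negative for 3 (median -0.06). The 2 positive ones were Axl at 1.19 (SE 0.32, limma adjusted p = 0.892) and Spp1 at 1.77 (SE 0.66, limma adjusted p = 0.974). Axl was at 2.54, 2.74 and 5.04 FPKM in 3-month transgenic against 5.53, 8.14 and 6.02 FPKM in 3-month control libraries. The part of the microglial markers in the Ctss values was not tested.

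Ctsz, cathepsin Z, a carboxypeptidase, was at 22.3, 20.5 and 9.15 FPKM in 3-month control and 21.7, 19.3 and 17.8 FPKM in 3-month transgenic libraries, and at 25.4, 22.1 and 20.2 against 26.1, 20.2 and 33.6 FPKM at 10 months. Its 3-month control 3 value lay below every other library, and the groups overlapped. Ctsf, cathepsin F, was steady in 3-month libraries, at 21.6, 21.1 and 22.2 FPKM in controls and 21.0, 19.7 and 19.8 FPKM in transgenic mice, and did not overlap there, though the log2 fold change was only -0.10 (95% confidence interval -0.62 to 0.42). Of the remaining proteases, Ctsl ran between 21.6 and 54.2 FPKM, Tpp1, a tripeptidyl peptidase that is lost in a form of Batten disease, between 3.33 and 11.4 FPKM, Ctsa, a carboxypeptidase that also protects Neu1 and Glb1 in a complex, between 2.83 and 6.10 FPKM, and Ctsh, an aminopeptidase, between 0.954 and 1.64 FPKM. All 4 overlapped between genotypes at both ages. Ctsl shares 26.8% of its exonic bases with the antisense gene Gm47123 and 6.09% with a processed pseudogene on the same strand. The part of these overlaps in its values was not tested. Ctsc, which activates serine proteases of immune cells, was at 0.597, 0.540 and 0.0929 against 0.515, 0.0152 and 0.779 FPKM at 3 months and at 0.212, 0.202 and 0.549 against 0.317, 0.339 and 0.450 FPKM at 10 months (control against transgenic), under the filter in every group.

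Among the glycosidases, Naglu ranked first of the list by p in 3 comparisons. Naglu (ENSMUSG00000001751, chromosome 11, 101070012 to 101077672, plus strand) encodes the glucosaminidase of heparan sulfate breakdown. It was at 2.98, 1.55 and 1.19 FPKM in 3-month control and 0.594, 0.661 and 0.723 FPKM in 3-month transgenic libraries, which did not overlap. At 10 months the order was turned, with 1.04, 0 and 0.251 FPKM in control and 2.84, 1.72 and 0.575 FPKM in transgenic libraries, which overlapped. Naglu passed the filter only through the groups where it was high, 3-month control (mean 1.91 FPKM) and 10-month transgenic (1.71 FPKM). Means were 0.660 FPKM in 3-month transgenic and 0.432 FPKM in 10-month control libraries. The log2 fold change between genotypes was -1.30 (SE 0.89) at 3 months and 2.16 (SE 0.89) at 10 months, and their difference was 3.47 (SE 1.26). The log2 fold change with age in controls was -2.45 (SE 0.89). After adjustment over all genes none of these held (limma adjusted p = 1, 0.969, 0.987 and 0.994). With 10-month control 2 left out, the library listed at 0, the 10-month genotype value was 1.28 and the age value in controls -1.56. With a pseudocount of 1 FPKM these were 0.90 and -1.04 and the interaction 1.66, and with 0.01 FPKM the 10-month value was 3.34.

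Gla and Neu1 came next by p with age in controls. Gla (chromosome X, 134588149 to 134601125, minus strand), the galactosidase lost in Fabry disease, was at 2.14, 2.02 and 2.27 FPKM in 3-month control, 2.91, 2.82 and 3.51 FPKM in 3-month transgenic, 2.77, 3.31 and 3.70 FPKM in 10-month control and 3.03, 2.65 and 3.50 FPKM in 10-month transgenic libraries. The 3 libraries of 3-month controls were the lowest of all 12. Its log2 fold change was 0.50 (SE 0.25) between genotypes at 3 months and 0.58 (SE 0.25) with age in controls, both without a call (limma adjusted p = 1 and 0.994). Neu1 (chromosome 17, 34931253 to 34935953, plus strand), a sialidase, was at 5.74, 8.75 and 10.3 FPKM in 3-month control and 6.45, 5.23 and 4.62 FPKM in 3-month transgenic libraries. At 10 months it was at 5.64, 4.34 and 6.11 against 5.76, 6.13 and 6.48 FPKM. Only the 3-month control 2 and 3 libraries stood above 6.48 FPKM, and the groups overlapped throughout (3-month genotype log2 fold change -0.57 with an SE of 0.26, limma adjusted p = 1).

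Hexa, the alpha subunit of the hexosaminidase lost in Tay-Sachs disease, was at 13.3, 11.2 and 14.2 against 20.2, 12.6 and 16.8 FPKM at 3 months and at 16.1, 13.8 and 14.6 against 16.1, 11.2 and 14.0 FPKM at 10 months, in control against transgenic libraries. Glb1, the beta-galactosidase lost in GM1 gangliosidosis, was at 5.43, 2.24 and 6.75 against 6.08, 7.38 and 7.47 FPKM and then 5.54, 6.58 and 5.11 against 7.69, 5.29 and 5.52 FPKM. Both genes overlapped between genotypes at each age. Man2b1, a mannosidase, was at 4.09, 3.74 and 2.85 FPKM in 3-month control, 4.15, 4.31 and 3.68 FPKM in 3-month transgenic, 2.99, 3.32 and 3.20 FPKM in 10-month control and 2.94, 3.28 and 3.22 FPKM in 10-month transgenic libraries. In transgenic mice its ages did not overlap, at a log2 fold change of -0.35 (95% confidence interval -0.86 to 0.16). Gaa (chromosome 11, 119267887 to 119285454, plus strand) had levels of 44.0, 44.9 and 46.4 against 51.1, 51.0 and 11.2 FPKM at 3 months and at 47.9, 49.3 and 52.7 against 50.4, 62.1 and 43.7 FPKM at 10 months. A single library, 3-month transgenic 3, lay apart, and its removal took the age difference in transgenic mice from 0.74 to 0.01 on the log2 scale. Gusb, a glucuronidase, ran between 0.841 and 2.68 FPKM with overlap in each comparison.

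Genes of lipid breakdown and export were led by Psap. Psap (ENSMUSG00000004207, chromosome 10, 60277627 to 60302597, plus strand) had levels of 310, 390 and 336 FPKM in 3-month control, 351, 351 and 325 FPKM in 3-month transgenic, 363, 356 and 348 FPKM in 10-month control and 380, 385 and 393 FPKM in 10-month transgenic libraries. It was the only one of the 30 genes whose 10-month genotypes did not overlap, 386 ± 6.12 against 356 ± 7.22 FPKM (SD, n = 3), where 8.26% of all genes did not overlap. Its log2 fold change there was 0.12 (SE 0.12, 95% confidence interval -0.15 to 0.38), without a call (limma adjusted p = 0.969). In the authors' deposited table the same difference is a fold change of 1.08 with a p-value of 0.0166 and a q-value of 0.854. Their p-value was also under 0.05 at 3 months for Gla (0.0177, fold change 1.32) and Gusb (0.0258, fold change 0.786). Both had a q-value of 0.904. No stretch of 31 bases of its annotated transcripts occurs in a transcript of another gene.

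Smpd1, the acid sphingomyelinase, was at 23.5, 25.0 and 28.0 against 32.1, 27.6 and 27.2 FPKM at 3 months and at 31.6, 22.3 and 13.9 against 27.4, 25.8 and 35.5 FPKM at 10 months, in control against transgenic libraries. The log2 fold change averaged over both ages was 0.32 (SE 0.19, limma adjusted p = 0.975), or 0.16 with 10-month control 3 left out, and the genotypes overlapped at both ages. The Niemann-Pick genes Npc1 and Npc2 encode the proteins that pass cholesterol out of the lysosome. Npc1 was at 3.26, 1.77 and 2.41 against 2.45, 3.52 and 3.26 FPKM at 3 months and at 1.44, 2.39 and 2.61 against 1.40, 4.76 and 4.99 FPKM at 10 months. Npc2 was at 16.6, 5.55 and 13.6 against 15.0, 15.1 and 15.3 FPKM and then 13.2, 16.0 and 12.5 against 17.1, 12.1 and 5.69 FPKM. In Npc2 the 3-month control 2 and 10-month transgenic 3 libraries lay more than 2-fold below the rest, and both genes overlapped between genotypes.

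Lipa, the acid lipase of cholesteryl esters, was at 3.11, 1.43 and 0.992 FPKM in 3-month control, 0.994, 4.45 and 4.25 FPKM in 3-month transgenic, 4.91, 4.19 and 4.91 FPKM in 10-month control and 5.64, 4.12 and 0 FPKM in 10-month transgenic libraries. Its 10-month genotype difference of -1.83 (SE 1.32, limma adjusted p = 0.969) turned to 0.05 without the 10-month transgenic 3 library, where it is listed at 0. Galc, the galactosylceramidase lost in Krabbe disease and used in myelin turnover, was at 2.20, 0 and 0 against 1.20, 1.11 and 0.916 FPKM at 3 months and at 0, 1.26 and 0.871 against 3.72, 5.93 and 0 FPKM at 10 months. It is listed at 0 in 4 libraries of 3 groups, and its 2 highest values are both in 10-month transgenic libraries. Galc passed the filter only through its transgenic groups, with means of 1.07 FPKM at 3 months and 3.22 FPKM at 10 months. Control means were 0.733 and 0.710 FPKM, so its genotype differences are no independent support. Ppt1, a palmitoyl-protein thioesterase that is lost in infantile Batten disease, was at 5.84, 0.135 and 8.04 against 0.575, 8.61 and 7.71 FPKM and then 8.68, 6.38 and 13.0 against 8.39, 0.142 and 7.40 FPKM. Arsa, the arylsulfatase lost in metachromatic leukodystrophy, was at 0.678, 0.631 and 0.613 against 0.325, 0.850 and 0.164 FPKM at 3 months and at 1.04, 1.14 and 1.41 against 2.02, 0.610 and 0.766 FPKM at 10 months. Its control libraries did not overlap between ages, at 0.80 on the log2 scale (SE 0.64) without a call (limma adjusted p = 0.994). Arsa passed the filter only through its 10-month groups, where control and transgenic means were 1.20 and 1.13 FPKM. At 3 months they were 0.641 and 0.446 FPKM, so its age difference is no independent support. An antisense gene covers 18.8% of its exonic bases. Asah1, the acid ceramidase, ran between 3.89 and 12.8 FPKM and overlapped in each comparison.

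Of the membrane proteins, Lamp1 (chromosome 8, 13159161 to 13175338, plus strand) had levels of 108, 62.1 and 57.5 against 97.8, 88.1 and 54.4 FPKM at 3 months and at 62.1, 93.3 and 53.4 against 70.7, 62.0 and 62.2 FPKM at 10 months. High and low libraries were found in both genotypes, and the genotype log2 fold changes were 0.09 (95% confidence interval -0.60 to 0.79) and -0.06 (-0.75 to 0.63). Lamp2, which serves as receptor of chaperone-mediated autophagy in one of its splice forms, ran between 2.30 and 5.84 FPKM, and Cln3, a membrane protein lost in juvenile Batten disease, between 0.159 and 0.938 FPKM, with overlap in each comparison. Scarb2 (chromosome 5, 92441314 to 92506833, minus strand), also called LIMP-2, carries glucocerebrosidase to the lysosome. It was at 17.8, 18.6 and 4.59 against 4.25, 6.70 and 15.6 FPKM at 3 months and at 6.96, 16.6 and 18.5 against 5.93, 7.73 and 4.28 FPKM at 10 months. Of the 5 libraries above 15 FPKM, 4 were controls and 1 was transgenic, and the difference averaged over both ages, -0.86 on the log2 scale (SE 0.45), was without a call (limma adjusted p = 0.975).

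Mcoln1 (chromosome 8, 3500457 to 3515232, plus strand) encodes TRPML1, the lysosomal calcium channel through which starvation can activate TFEB. It was at 0.0495, 0.154 and 6.45 FPKM in 3-month control, 6.39, 5.84 and 4.23 FPKM in 3-month transgenic, 0.188, 5.03 and 4.97 FPKM in 10-month control and 6.44, 0.146 and 6.94 FPKM in 10-month transgenic libraries. Each value was either above 4 FPKM or below 0.2 FPKM. The genotype log2 fold change at 3 months, 3.13 (SE 1.74, limma adjusted p = 1), turned to -0.25 when values more than 8-fold under a gene's median were set to missing, an alternative chosen after seeing the data.

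**Figure D2:**
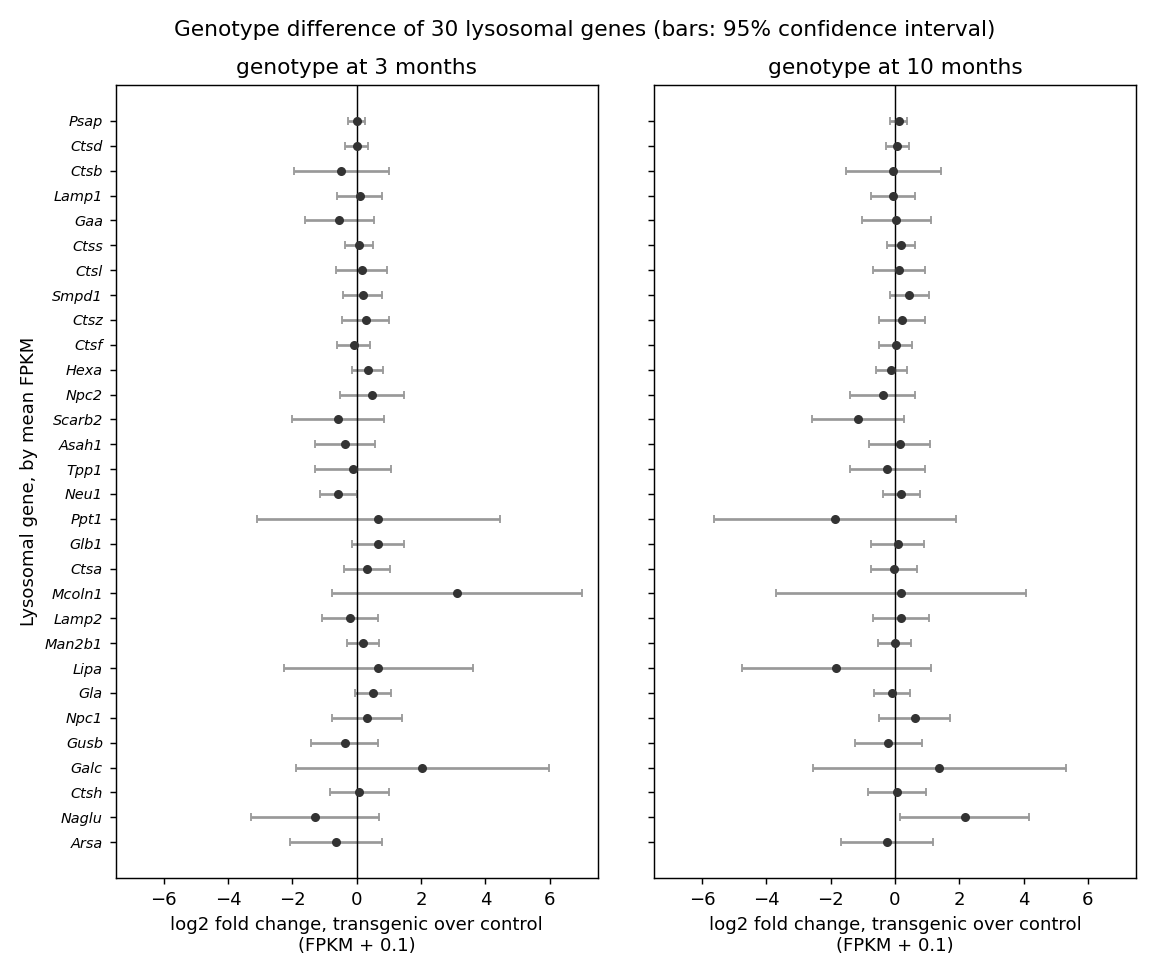
Genotype log2 fold changes (transgenic over control, FPKM + 0.1) of the 30 lysosomal genes tested, at 3 months on the left and at 10 months on the right, with 95% confidence intervals from limma. Intervals are narrow for Psap and Ctsd and span several log2 units for Mcoln1, Ppt1, Lipa and Galc, and the interval of Naglu at 10 months leaves out 0 before adjustment for the 9846 genes.

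Across the list, genotype differences were centred near 0 at both ages. At 10 months 17 of 30 log2 fold changes were positive (50.9% of all genes were), with a median of 0.06 beside 0.01 over all genes tested. At 3 months 17 of 30 were positive (52.1% of all genes), with a median of 0.09 beside 0.02, and averaged over both ages 18 of 30 were positive (51.2% of all genes), with a median of 0.05 beside 0.01. With 10-month control 1 left out the 10-month median was -0.018, with 10-month transgenic 3 left out it was -0.015, and with 10-month transgenic 2 left out 0.188. With 3-month control 3 left out the 3-month median was -0.022. Galc, whose log2 fold change was positive at both ages and in their average, had passed the filter only through its transgenic groups. At an unadjusted p under 0.05 there was 1 of 30 genes at 10 months, Naglu, where 4.4% of all genes reached this. At 3 months there were 0 of 30 (3.39% of all genes), and 0 of 30 for the average over ages (3.75%). Groups did not overlap for 1 of 30 at 10 months, Psap, which was higher (8.26% of all genes, 4.37% higher and 3.89% lower), and for 3 of 30 at 3 months (7.98% of all genes). Of these 3, Gla was higher, as were 4.44% of all genes, and Ctsf and Naglu were lower, as were 3.54%. These counts are near the shares of all genes.

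The precision of these statements differs by gene. At 10 months the 95% confidence interval lay within a 2-fold change in either direction for 14 of 30 genes, and at 3 months for 10 of 30, with a median interval of 0.89 log2 units on each side at both ages. For the average over ages, it lay within these bounds for 18 of 30. These intervals are not adjusted for the 9846 genes tested, so changes larger than they span could also have gone without a call. At 10 months the interval of Naglu, 0.17 to 4.16, left out 0 at a limma adjusted p of 0.969. The absence of a call does not show that levels were the same.

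The interaction and the age comparisons gave no call either. For the interaction 14 of 30 were positive (48.9% of all genes), with a median of -0.02 beside -0.02 for all genes, and 1 of 30, Naglu, had an unadjusted p under 0.05 (3.32% of all genes). With age in controls 20 of 30 were positive (56% of all genes), with a median of 0.14 beside 0.06. Naglu, Gla and Neu1 had an unadjusted p under 0.05 there, 3 of 30 where 4.19% of all genes did, and 5 of 30 genes did not overlap (10.1% of all genes). At 10 months Gaa, Lipa, Gla and Arsa were higher, as were 6.8% of all genes, and Naglu was lower, as were 3.25%. Of these, Arsa and Naglu had passed the filter only through groups where they were high. In transgenic mice 17 of 30 were positive with age (54.1% of all genes), with a median of 0.02 beside 0.05, 0 of 30 had an unadjusted p under 0.05 (4.31% of all genes), and 2 of 30 did not overlap (9.43% of all genes). Psap was higher, as were 5.78% of all genes, and Man2b1 was lower, as were 3.65%.

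**Figure D3:**
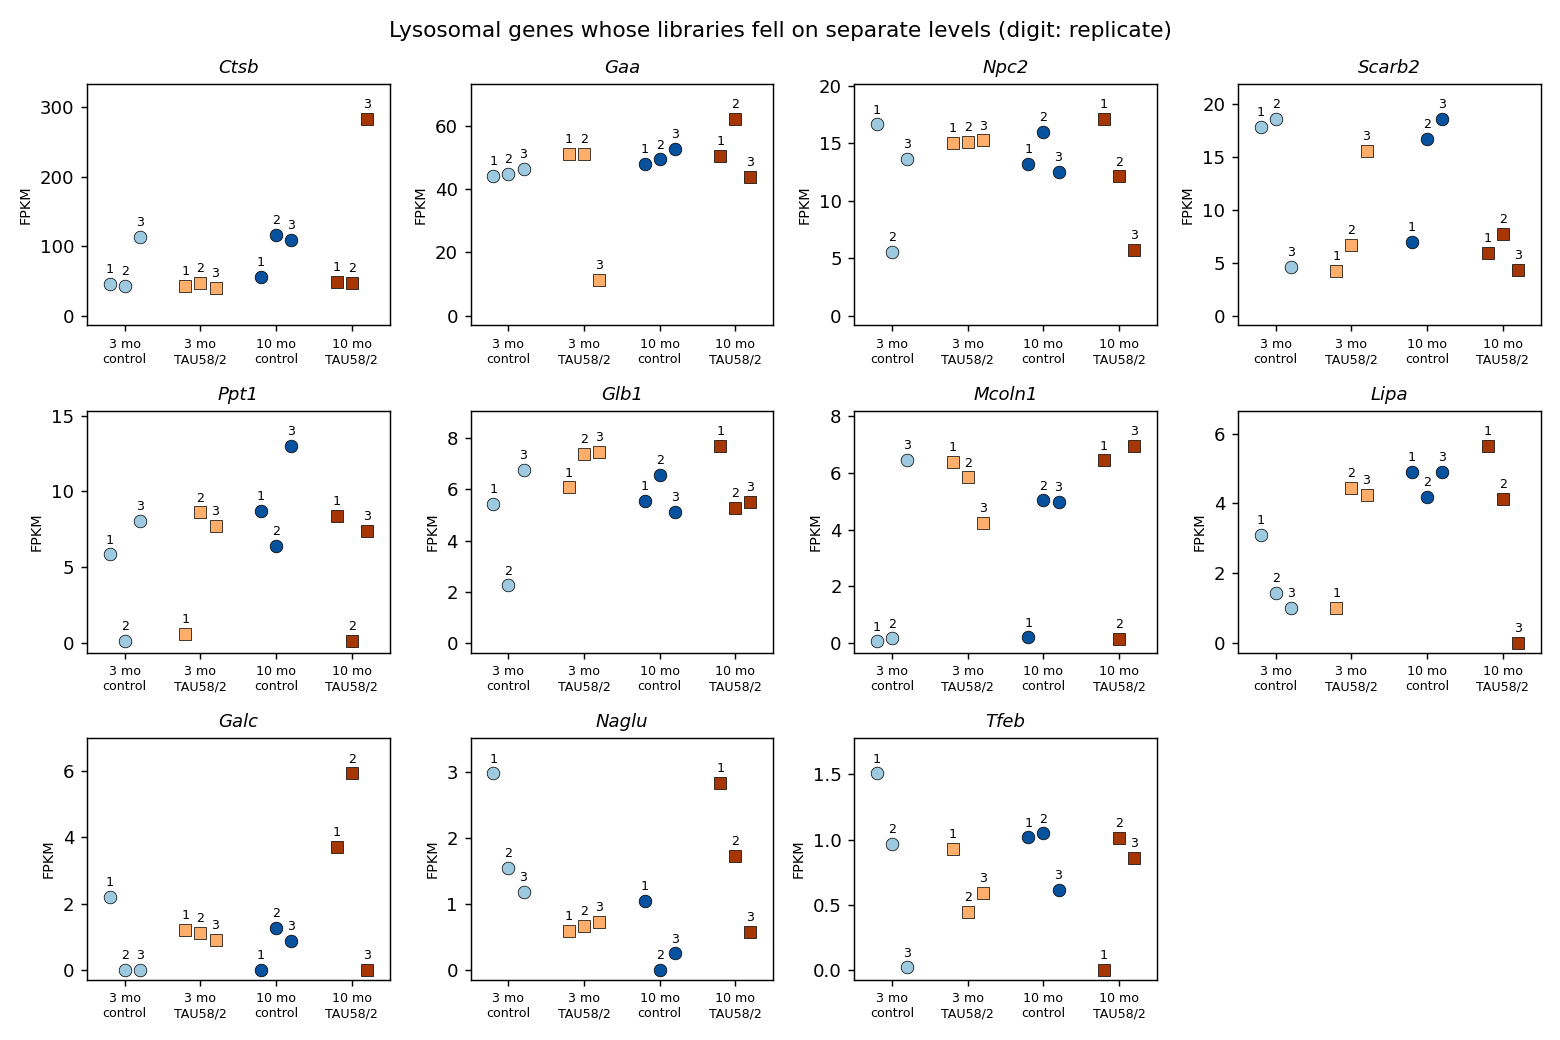
FPKM of the 11 lysosomal genes whose 12 values held a step of at least 2-fold between neighbouring values, 1 panel per gene, with the 3 libraries of each group side by side and the replicate number above each point. In Mcoln1 and Ppt1 libraries of both genotypes sit near 0, and in Scarb2 the higher level holds libraries of 3 groups.

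Replicate libraries of 1 group differed by large steps in part of the list. Sorted over the 12 libraries, 11 of the 33 genes had a step of at least 2-fold on the log2(FPKM + 0.1) scale between neighbouring values, namely Ctsb, Gaa, Npc2, Scarb2, Ppt1, Glb1, Mcoln1, Lipa, Galc, Naglu and Tfeb. Among the 30 tested genes it was 33.3%, against 48.7% of all genes tested. With a median of at least 5 FPKM the share was 36.8% of 19 lysosomal genes and 32.5% of 4390 genes. The libraries on the low side differed from gene to gene. Ppt1 was low in the 3-month control 2, 3-month transgenic 1 and 10-month transgenic 2 libraries, while Mcoln1 was low in 3-month control 1 and 2, 10-month control 1 and 10-month transgenic 2. What set these steps was not tested.

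**Figure D4:**
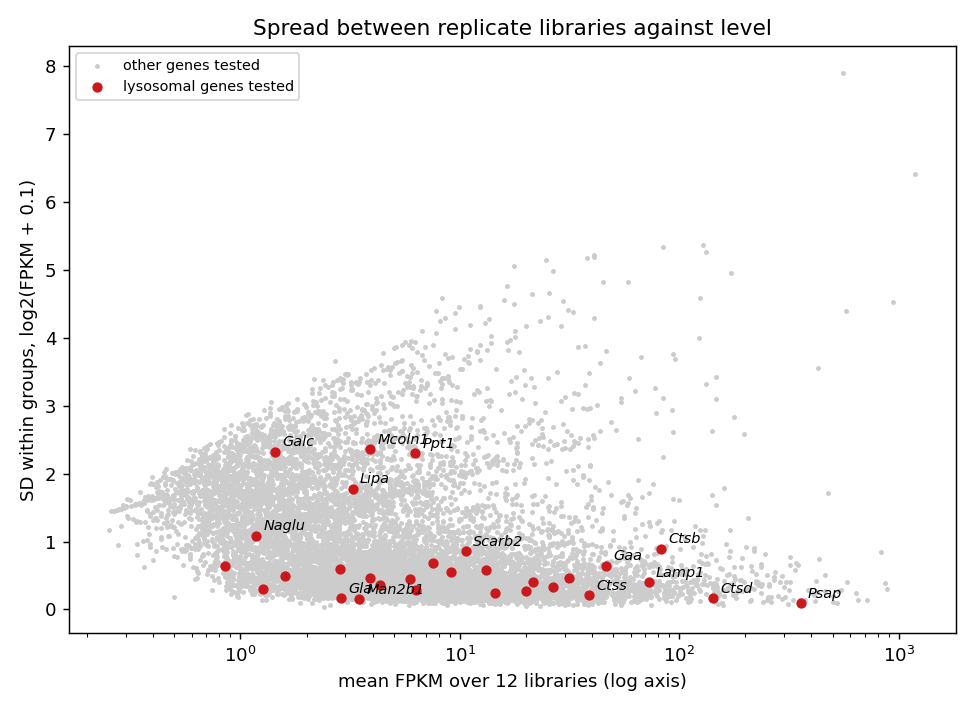
Spread between replicate libraries (SD within groups, pooled, of log2(FPKM + 0.1)) against mean FPKM on a log axis for the 9846 genes tested, with the 30 lysosomal genes in red. Psap and Ctsd lie at the lower edge at high level, and Mcoln1, Galc, Ppt1 and Lipa lie between 1.77 and 2.35 log2 units.

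The median SD within groups was 0.466 log2 units for the 30 genes and 0.73 for all genes tested, and 0.452 against 0.464 for those with a median of at least 5 FPKM. The steadiest were Psap (0.09), Man2b1 (0.15), Ctsd (0.16) and Gla (0.17), and the most variable Mcoln1 (2.35), Galc (2.32) and Ppt1 (2.30). Abundance did not set this order alone, since Gla at a mean of 2.89 FPKM varied by 19.2% of its mean over the 12 libraries and Ctsb at 82.5 FPKM by 84.7%.

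**Figure D5:**
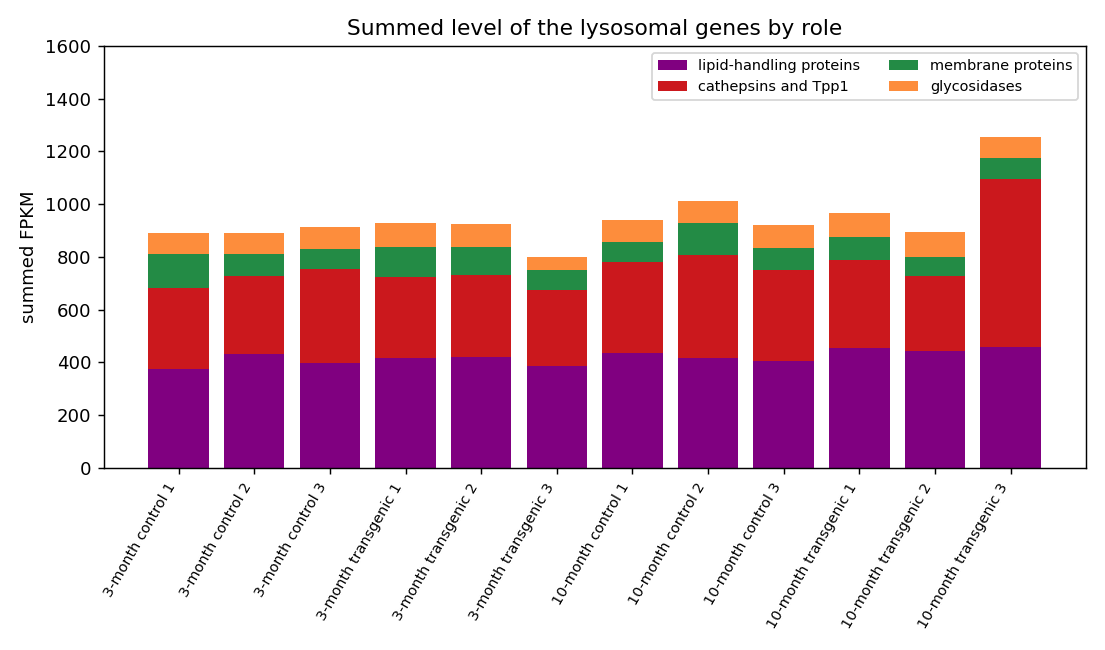
Summed FPKM of the lysosomal genes in each of the 12 libraries, stacked by role (Tfeb, below 2 FPKM in every library, is left out), with the axis starting at 0. The 10-month transgenic 3 library is highest through its cathepsins, at 636 FPKM against 282 to 392 FPKM in the others, while the lipid-handling genes lie between 376 and 460 FPKM.

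By role, the summed level of the cathepsins and Tpp1 was 318 ± 32.9 FPKM in 3-month control, 302 ± 12.9 in 3-month transgenic, 361 ± 26.9 in 10-month control and 417 ± 192 FPKM in 10-month transgenic libraries (SD, n = 3). The wide spread of the last group comes from the 10-month transgenic 3 library, at 636 FPKM, of which Ctsb gave 283 FPKM. The same library was also highest of the 12 in the summed markers of activated microglia (821 FPKM against 305 to 619 in the others), astrocytes (645 against 339 to 574), oligodendrocytes (766 against 333 to 707) and endothelium (61.8 against 30.6 to 51.9 FPKM). Apoe alone gave 793 FPKM of the activated microglial sum in that library, where Lpl was at 0 and Axl and Spp1 were not highest. Aldoc gave 474 FPKM of the astrocyte sum, and Aldoc and Gfap were highest there of the 12 libraries. Slc1a2 and Aqp4, also astrocyte markers, were lowest there, at 3.66 and 0.207 FPKM. The part of these markers in the cathepsin sum was not tested. That library held the highest value of 13 of the 33 genes, Psap, Ctsd, Ctss, Ctsl and Smpd1 among them, and also of 21.2% of all genes tested. It had the highest FPKM total, 158077, and after division by size factors it was highest for 9 of the 33. Lipid-handling genes summed to 403 ± 28.9, 409 ± 18.1, 419 ± 15.0 and 454 ± 7.51 FPKM in the same order of groups. Their 10-month groups did not overlap, 406 to 435 against 445 to 460 FPKM, and Psap made up most of each sum. Glycosidases summed to 80.5 ± 4.73, 75.9 ± 23.2, 84.5 ± 2.34 and 87.6 ± 7.18 FPKM, and membrane proteins to 96.0 ± 28.7, 98.2 ± 18.5, 91.6 ± 25.5 and 80.8 ± 6.52 FPKM, with overlap between genotypes in both.

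Other genes of the pathway were listed under 109 names. They comprised further hydrolases, further membrane proteins, subunits of the proton pump that acidifies the lysosome, delivery factors and regulators. The name Limp2 among them is an alias of the member Scarb2 and did not occur in the tables. The other 108 were in the tables and 95 were tested, and limma called 0 of 95 in each of the 6 comparisons. At an unadjusted p under 0.05 there were 5 of 95 between genotypes at 10 months, 3 higher and 2 lower, and 3 of 95 at 3 months, all higher, where 4.4% and 3.39% of all genes reached this, so both counts are near the background. At 10 months 13 of 22 further hydrolases, 17 of 26 further membrane proteins and 14 of 18 proton pump subunits had positive log2 fold changes, where 50.9% of all genes did, with medians of 0.16, 0.25 and 0.08 beside 0.01 for all genes. Their 3-month medians were -0.12, 0.05 and 0.05. Of the delivery genes 7 of 15 and of the regulators 6 of 14 were positive at 10 months, with medians of -0.04 and -0.10. Among cell type markers at 10 months, log2 fold changes were positive for 10 of 10 oligodendrocyte (median 0.50), 5 of 6 endothelial (0.29), 6 of 10 astrocyte (0.27), 8 of 13 microglial (0.06) and 6 of 10 neuronal markers (0.04), and for 1 of 9 cortex markers (-0.43). None of these markers was called (smallest limma adjusted p = 0.969), the oligodendrocyte sums overlapped at 333 to 534 FPKM in control and 466 to 766 FPKM in transgenic libraries, and the part of these markers in the lysosomal values was not tested.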

How the data were processed

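Cortex RNA was depleted of ribosomal RNA and made into stranded libraries, per the labels' protocols. The deposited FPKM per gene and library come in 2 tables, 1 for each age, with the authors' mean FPKM, log2 and linear fold change (a ratio), p-values and q-values, whose test is not given in the sources used here. HISAT2 2.0.4, StringTie 1.3.0, SAMtools and R 3.4.2 with builds mm10 and GRCm38 are named per the submitters' processing notes, and the annotation used for counting is not given in the sources used here. Columns were matched to samples through the sample number in the labels, and all 12 were used.

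FPKM were analysed as log2(FPKM + 0.1), a scale that shrinks ratios of low values but gives much weight to a single library near 0. Lipa at 10 months, for example, was at -1.83 with all libraries and 0.05 without 10-month transgenic 3. The 12 libraries were fitted together in limma 3.58.1 (R 4.3.3) for genes reaching a group mean of 1 FPKM (group means, eBayes with trend and robust), on the untested assumption that both tables share a scale. The fit was tested on simulated data with 200 changed genes. Their noise was capped below the median SD within groups of the real data (0.73 log2 units for all genes tested). That test therefore does not show how well the fit finds changes in these libraries. Adjusted p are Benjamini-Hochberg values across the whole set of tested genes. Confidence intervals are 95% and unadjusted. Depth is unknown, so no counting interval is given. Positions come from the GENCODE annotation of GRCm38, and promoters from RefSeq (GRCm38.p6). Promoter matches are by symbol.

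Members and lists were chosen with earlier results of these data known. Values in every library are given for the 5 most abundant members, Tfeb, the 5 with the smallest p in each of the 6 comparisons, and those more than 8-fold under their median in any library. Ctsf falls outside this rule and was chosen after its values were seen. Alternatives were other pseudocounts, filters and scalings, a replicate block, a plain eBayes, each age alone and each library left out.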

Additional observations from a re-analysis of the deposited data

How the results depend on the processing

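No lysosomal gene was called under any alternative or with any library left out. The number of all genes called moved. Without a filter it was 2 at 10 months, 9 at 3 months, 9 for the average over ages, 9 for the interaction, 7 with age in controls and 7 in transgenic mice, against 1, 4, 5, 5, 3 and 2. With a filter at 5 FPKM it was 0, 2, 2, 1 and 0 for the first 5 of these. A pseudocount of 0.01 gave 2 for the interaction, and eBayes without trend and robust gave 6 with age in transgenic mice. With values far under the median set to missing, chosen after seeing the data, it was 0 at 10 months, 2 for the average and 1 for the interaction, whose median over the lysosomal genes was 0.10. Each age fitted alone gave 0 at 10 and 14 at 3 months. Over the 12 fits without a library it ran from 0 to 8 at 10 months, 4 to 12 at 3 months, 1 to 10 for the average, 2 to 11 for the interaction, 3 to 10 with age in controls and 2 to 13 in transgenic mice, and moved by over 1.5 times in 12, 7, 5, 9, 8 and 8 of these fits. The median of the lysosomal genes ran from -0.018 to 0.188 at 10 months, -0.13 to 0.12 for the interaction and -0.030 to 0.18 with age in transgenic mice, highest without the 10-month transgenic 2 library in each. For Lipa at 10 months the log2 fold change ran from -2.87 to 0.048 over the fits without a library, 0.048 being without 10-month transgenic 3, and was 0.048 with far-low values missing, and for Mcoln1 at 3 months -0.25 with far-low values missing.

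The replicate number as a block gave 0 genes at 10 months, 1 for the average and 1 for the interaction, and 4, 3 and 2 genes in the other comparisons. No source says that numbers pair mice, and deviations of same-numbered libraries correlated between -0.12 and 0.09.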

Other observations

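A few lysosomal genes outside the list of 33 had groups that stood apart, named here after their values were seen from among 95 tested. Of all genes tested, 8.26% had genotypes that did not overlap at 10 months and 7.98% at 3 months, in either direction. The share that stood apart in the same direction at both ages was not counted. Cd68, a membrane glycoprotein of phagocyte lysosomes, was higher in every transgenic than in every control library at each age, at 5.15, 6.12 and 6.60 against 4.62, 4.87 and 5.07 FPKM at 3 months and at 6.06, 5.87 and 5.62 against 4.33, 4.70 and 3.78 FPKM at 10 months. Its log2 fold change averaged over both ages was 0.37 (SE 0.13, limma adjusted p = 0.975). Gm2a, the activator protein of ganglioside breakdown, was at 22.2, 17.7 and 25.7 FPKM in 10-month transgenic and 13.1, 12.3 and 10.2 FPKM in 10-month control libraries (log2 fold change 0.87, SE 0.28, limma adjusted p = 0.969), but at 3 months the groups overlapped.

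Atp6ap2, an accessory protein of the proton pump, fell on separate levels, with 5 libraries between 72.7 and 90.1 FPKM and 7 between 30.8 and 43.6 FPKM. The 3 libraries of 10-month controls and the 3-month transgenic 1 and 3 libraries made up the upper level. The age by genotype interaction had a log2 value of -1.87 with an SE of 0.41 and no call (limma adjusted p = 0.644). Rragd, a GTPase that relays amino acid levels to the kinase mTOR, was at 21.3, 7.39 and 11.8 FPKM in 10-month control and 2.32, 2.99 and 1.33 FPKM in 10-month transgenic libraries (log2 fold change -2.49, SE 0.65, limma adjusted p = 0.969).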
